A study of Mus musculus with 2 samples.

Results

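Transcripts of 10 endothelial genes, Pecam1, Cdh5, Kdr, Flt1, Egfl7, Tek, Tie1, Emcn, Esam and Eng, were counted in myofibers sorted one by one from the FDB, the flexor digitorum brevis, which bends the toes. The members were chosen by name as markers of the cells that line blood vessels, and they are 10 of the 35163 gene rows of the count table. Myofibers were taken from 1 untreated C57BL/6J mouse over 3 months of age by the deposited description, while the study's methods name adult males of the C57BL/6J and DBA2 backgrounds. They were digested with collagenase for 1.5 h, sorted singly on a large-particle instrument with a 500 µm channel into 8 plates (705 to 712), and sequenced by mcSCRB-seq on 2 lanes. Values are unique molecular identifier (UMI) counts, in which amplified copies of a captured molecule are counted once. Of 763 cells, 171 passed the study's filters of more than 5000 genes and less than 20% mitochondrial counts, and 168 of them were whole myofibers and 3 were fragments. Plates 705 to 708 were on lane 1 (88 of the 171 fibers) and plates 709 to 712 on lane 2 (83 fibers). All fibers came from the same mouse, so no test across fibers was made. Intervals are exact 95% limits that cover counting error only, and PCR or capture differences between plates are not in them.

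Endothelial cells form the inner wall of capillaries, which run along and between myofibers. Pecam1, Cdh5 and Esam are adhesion molecules at the contacts between these cells, with Cdh5 (VE-cadherin) the main cadherin of the junction. Kdr and Flt1 are receptors for vascular endothelial growth factors, and Tek and Tie1 are the receptors of the angiopoietin system. Eng is a co-receptor for ligands of the TGF-beta family, Emcn is a sialomucin of capillary and venous endothelium, and Egfl7 is a secreted protein of the vessel wall. Muscle is known as a source of ligands for these receptors, such as Vegfa.

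Promoter sequences were printed for Tek and Flt1, the members with the most counts that were matched in the RefSeq promoter table (GRCm38.p6), because both are endothelial receptor genes whose counts varied with different genes across fibers, as described below. Of the 10 members, 7 were matched, with 9 entries in all, and Pecam1, Cdh5 and Esam were not matched. The ETS core motifs CAGGAAG and CCGGAAG, which ETS factors of endothelial cells such as Erg can bind, were searched on both strands in the 250 bases before each start. Egfl7 is shown as a member with a match, and it was chosen after the matches were seen. Its window is 1 base shorter, since the last base lies in an annotated exon. Capitals mark the motif, all sequences are 5′ to 3′ on the gene's own strand, and Tek lies at chr4:94739039-94739288 (plus), Flt1 at chr5:147726012-147726261 (minus) and Egfl7 at chr2:26583615-26583863 (plus).
Tek: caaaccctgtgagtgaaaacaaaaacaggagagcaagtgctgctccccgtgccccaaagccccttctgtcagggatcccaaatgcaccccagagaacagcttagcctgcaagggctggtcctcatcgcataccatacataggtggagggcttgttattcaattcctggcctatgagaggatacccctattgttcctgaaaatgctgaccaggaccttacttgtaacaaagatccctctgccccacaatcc
Flt1: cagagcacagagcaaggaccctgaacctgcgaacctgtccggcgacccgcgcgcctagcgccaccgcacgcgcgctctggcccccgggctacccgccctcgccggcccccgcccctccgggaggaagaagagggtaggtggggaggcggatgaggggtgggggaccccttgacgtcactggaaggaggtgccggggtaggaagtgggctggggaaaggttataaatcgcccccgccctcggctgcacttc
Egfl7: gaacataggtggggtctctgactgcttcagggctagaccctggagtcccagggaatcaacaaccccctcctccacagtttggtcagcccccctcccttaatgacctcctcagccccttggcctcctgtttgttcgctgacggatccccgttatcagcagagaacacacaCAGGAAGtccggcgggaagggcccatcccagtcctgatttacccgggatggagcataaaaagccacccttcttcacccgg
No match was found in the windows of Tek, Flt1, Kdr, Tie1 and Eng. The shown Egfl7 window has CAGGAAG starting 81 bases before the start, and another Egfl7 entry has it at 90 bases and, on the other strand, at 49 bases. The Emcn window has it on the other strand at 174 bases. Either motif was present in 17.0% of all 32851 promoter windows, and GC made up 51.2% of the Tek window and 70.4% of the Flt1 window, against a median of 52.4%. These matches are a description of the letters and do not show binding.

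Every member was detected, and 170 of the 171 fibers had at least 1 UMI of at least 1 member. The 10 genes together had 9984 counts, or 192 CPM (limits 189 to 196), where CPM is the counts-per-million level over the summed total of the fibers. Tek supplied 47.3% of these counts. The 9 others had 5260 counts, or 101 CPM (limits 98.6 to 104). Because Tek behaved differently from the others, most results are given for Tek and for the 9 others apart, a division made after the values were seen.

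Tek was detected in 164 of 171 fibers (95.9%, limits 91.7 to 98.3), with a median of 61.5 CPM and a range from 0 to 457 CPM. Pecam1 was found in 151 fibers (88.3%, limits 82.5 to 92.7), with a median of 16.8 CPM and a highest value of 762 CPM. Flt1 was found in 145 fibers (84.8%, limits 78.5 to 89.8), with a median of 17.0 CPM and a highest value of 842 CPM. Eng was found in 140 fibers (81.9%, limits 75.3 to 87.3), with a median of 10.3 CPM and a highest value of 252 CPM. These 4 genes were thus carried by most fibers at a low level. The other 6 were found in fewer fibers. Kdr was in 104, Cdh5 in 99 and Egfl7 in 97 fibers, with medians of 2.46, 2.76 and 2.18 CPM. Tie1 (81 fibers), Esam (78) and Emcn (76) were missing from most fibers and had a median of 0, and their highest values were 249, 224 and 261 CPM. In all, 7 of the 10 members were carried by at least 50% of fibers, against 33.4% of the 34123 gene symbols with at least 1 count.

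**Figure D1:**
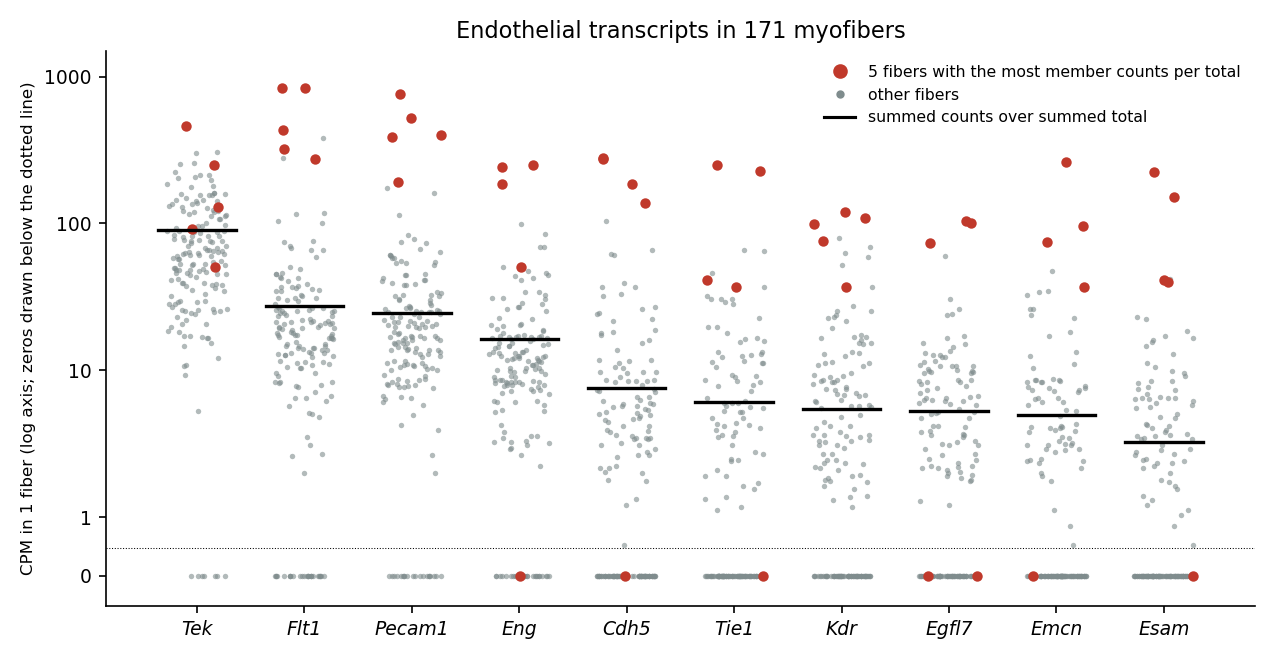
Level of each member in each of 171 fibers, in CPM on a log axis with zeros drawn below the dotted line; the black bar is the summed count over the summed total, and red points are the 5 fibers with the most member counts per total. The highest value of each of the 10 genes is a red point, although some red points are at 0 in single genes and, for Tek, 4 of the 5 lie within the range of the other fibers.

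The number of fibers carrying a gene followed depth. When the fibers were thinned to 28827 counts, the depth of the shallowest, the expected share with a UMI was 77.4% for Tek, 44.1% for Pecam1, 42.2% for Flt1 and 30.6% for Eng, and 9.56% to 17.4% for the other 6. As a background, 34 genes of tissues that are not in this muscle, such as lung (Sftpb) and thyroid (Tg), had a median share of 14.3% of fibers at full depth and 2.42% after thinning. The medians of the 10 members were 59.4% and 17.0%. Sftpb, a surfactant protein of the lung, was found in 57.9% of fibers, so that a share of the size of Cdh5 (57.9%) or Egfl7 (56.7%) was also reached by a gene of a tissue that is not present.

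Levels of different genes were compared per kilobase of annotated exon (GENCODE, GRCm38), although counts of a protocol primed at the poly(A) end need not grow with length. On this scale Tek was highest at 19.3 CPM per kilobase, with 14.6 for lane 1 and 23.7 for lane 2. Eng (4.04) and Pecam1 (3.98) came next and their limits overlapped. Flt1 (2.03), Cdh5 (1.81), Egfl7 (1.47), Tie1 (1.24), Esam (1.13) and Emcn (0.922) followed, and the limits of neighbors in this order overlapped from Flt1 to Emcn. Kdr was lowest at 0.608 CPM per kilobase, with limits below those of Emcn. Counts of Egfl7 may include reads of Gm20532, which lies on the same strand over 6482 of its bases and had 572 counts itself against 274 for Egfl7. Cdh5 overlaps an antisense gene (Gm29682, 93 counts), and Eng and Egfl7 overlap the ends of Fpgs and Agpat2 on the other strand by 61 and 64 bases. The study's methods name the default settings of the counting pipeline, and what these set for strand and introns is not given in the sources used here.

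A median of 7 of the 10 members was found per fiber. All 10 were found in 23 fibers, at least 5 in 138 fibers (80.7%), and none in 1 fiber. After thinning to equal depth, at least 5 members were found in a mean of 20.9 fibers (12.2%) over 10 draws. Thinning lowers such a count for any genes at these levels, so the fall shows only that the count depends on depth.

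In a few fibers several members were high at once, as described below. The co-variation of each pair was described by Pearson's r of depth-adjusted residuals, the observed minus the depth-expected count over the root of the expected count. Over 171 fibers of the same mouse, r was above 0 in all 45 pairs, with a median of 0.58. Among the 36 pairs without Tek the median was 0.61, from 0.34 for Tie1 and Emcn to 0.86 for Flt1 and Emcn, and 27 pairs reached 0.5. The 9 pairs with Tek had a median of 0.28, from 0.09 with Tie1 to 0.32 with Emcn and Eng, and 0 of them reached 0.5. The junction genes Pecam1 and Cdh5 had an r of 0.75, and the growth factor receptors Kdr and Flt1 0.80, while the paired receptors Tek and Tie1 had 0.09.

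This co-variation was lower when a few fibers were left out. The 5 fibers with the most member counts per total were picked by the same counts that are correlated. A lower r without them thus follows in part from the choice. With these 5 left out, the median r of the 45 pairs was 0.13 and that of the 36 pairs without Tek 0.16, and 0 pairs reached 0.5. The highest remaining value was 0.41, for Pecam1 and Flt1. Ranks, on which single fibers weigh less, gave a median Spearman's rho of 0.20 for the 36 pairs over all 171 fibers and of 0.16 without the 5. All 36 remained above 0 without the 5 fibers, by r and by rho. Centring within plates left the median r of the 36 pairs at 0.60. By lane, the median r of the 36 pairs was 0.21 over the 88 fibers of lane 1, which held 1 of the 5 fibers, and 0.72 over the 83 fibers of lane 2, which held 4.

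**Figure D2:**
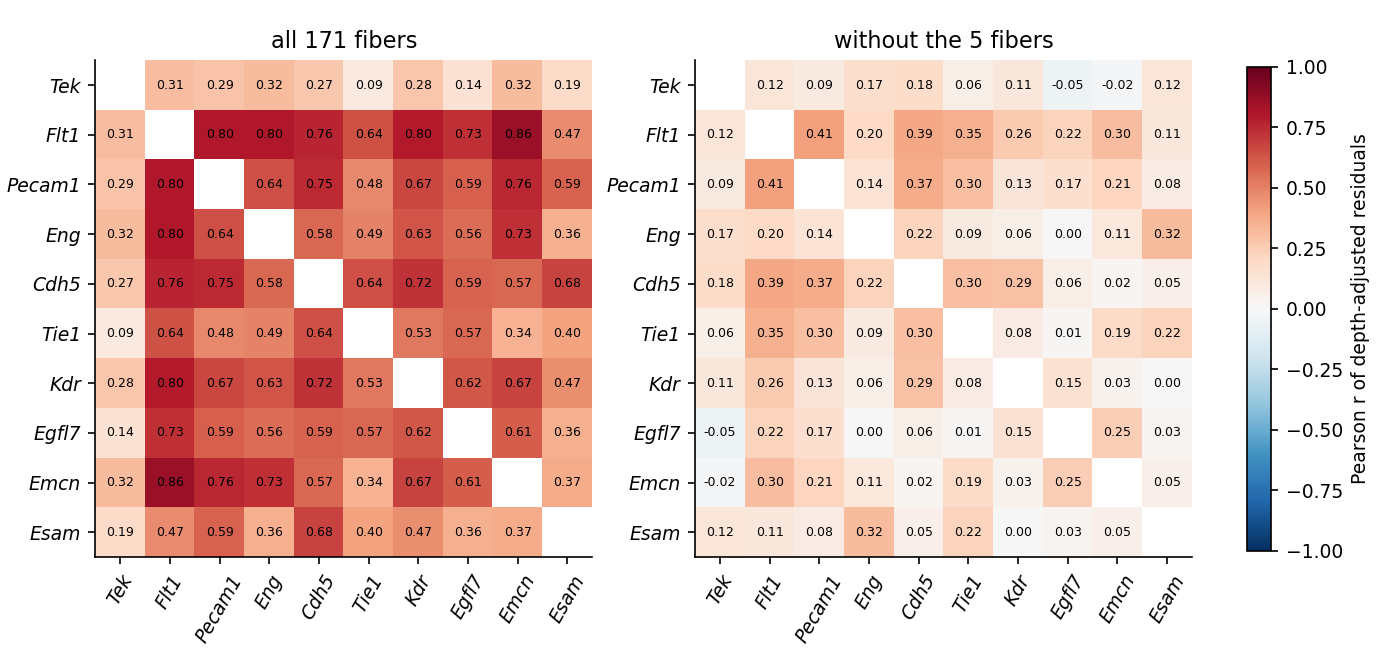
Pearson's r of depth-adjusted residuals for each pair of members, over all 171 fibers (left) and without the 5 fibers with the most member counts per total (right), with the value printed in each cell. The left panel shows a block of 9 genes with values from 0.34 to 0.86 and the row of Tek below 0.33, and in the right panel no value exceeds 0.41.

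The fiber with most member counts was a whole fast 2X fiber on plate 711 with 218585 counts. It had 599 member UMIs, or 2740 CPM, and carried all 10 members, among them 184 UMIs of Flt1, 115 of Pecam1, 100 of Tek, 57 of Emcn and 55 of Eng. This fiber alone held 22.0% of all Emcn counts, 12.9% of Flt1 and 8.94% of Pecam1, with 0.421% of the counts of all genes. The second was a fragment on plate 710 (2194 CPM) with 104 UMIs of Flt1, 31 of Tie1, 30 of Eng, 24 of Pecam1 and 23 of Cdh5. The next were whole fast 2X fibers on plate 710 at 2132 and 1645 CPM, with 30 and 16 UMIs of Pecam1, and a fast 2A fiber on plate 705 at 1052 CPM, with 21. The 10 members had 2264 CPM in these 5 fibers and 173 CPM in the other 166.

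In the first 4 of these fibers several members were high at once. Counting a member as high at 3 or more times its level over all fibers and with at least 3 UMIs, 9, 9, 7 and 6 of the 9 genes were high in them, and 3 in the fifth. Of all 171 fibers, 48 had at least 1 of the 9 genes high, 17 at least 2 and 4 at least 4. Tek was high in 3 fibers. Of the 9-gene counts summed over each group, Kdr made up 4.81% in the first fiber, 5.37% in the next 4 and 5.49% in the other 166. Flt1 made up 36.9%, 33.3% and 25.3%, and Eng 11.02%, 9.40% and 17.5%.

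Summed over the same 5 fibers, transcripts of other cell types, also of tissues that are not in the muscle, were higher than in the rest, and their part in the result was not tested. A list of 35 other endothelial genes had 2368 CPM in the 5 fibers and 258 CPM in the rest. For mural cells, the smooth muscle and pericytes around vessels, 12 genes had 2278 against 337 CPM. The 3 most abundant of them did not all share this, with Abcc9 at 65.0 against 160.4 CPM, Smtn at 77.6 against 94.9 and Cspg4 at 62.9 against 43.5. Genes of the list that were higher, chosen after their values were seen, were Myh11 (690 against 9.54 CPM), Rgs5 (510 against 8.75), Acta2 (472 against 5.42), Tagln (143 against 1.61) and Notch3 (111 against 7.46). Not all of the 5 fibers shared this. In the order above, Acta2 had 54, 3, 167, 1 and 0 UMIs in them, Rgs5 99, 81, 2, 37 and 24, and Notch3 30, 5, 13, 0 and 5. Fibroblast genes, led by Gsn, Dcn and Col3a1, had 1825 against 136 CPM, leukocyte genes 166 against 36.2, Schwann cell and axon genes 294 against 65.3 and erythroid genes 296 against 17.3. The 22 neuronal genes that the study described in these fibers had 3019 against 607 CPM, and the 34 genes of absent tissues 216 against 50.7, although Sftpb among them had 2.10 against 6.38. By contrast 12 myofiber genes had 42370 against 170558 CPM, and satellite cell genes 743 against 2325. Des, which is also a myofiber gene, supplied 105256 of the 119957 counts of the satellite list. Pax7, the transcription factor of satellite cells, had 44.1 against 7.41 CPM, Vcam1 73.4 against 3.21 and Calcr 18.9 against 2.6. These 3 were chosen after their values were seen. The other genes of the list, Des among them, were lower in the 5 fibers. Myod1 had 8.39 against 41.3 CPM, Myf5 0 against 4.35, Itga7 73.4 against 127, Sdc4 69.2 against 96.3 and Chodl 0 against 0.952. Single fibers carried some of these sums, since erythroid genes were at 398, 177, 787, 24.9 and 0 CPM in the 5 fibers in the order above, leukocyte genes at 110, 96.5, 25.4, 99.7 and 702 CPM, and Schwann cell and axon genes at 68.6, 522, 178, 449 and 646 CPM. Mural genes were at 868 to 11575 CPM and other endothelial genes at 1545 to 2556 CPM, so that each of the 5 was above the level of the rest for both. In the highest fiber Ttn had 14402 CPM, against a median of 52832 CPM over the 171 fibers. The 5 fibers had 39394 to 218585 counts and 3.61% to 19.7% mitochondrial counts.

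Over all fibers, the summed 9 genes followed the list of other endothelial genes with an r of 0.94, and 0.64 without the 5 fibers. The values were 0.57 and 0.36 for mural genes, 0.40 and 0.44 for fibroblast genes, 0.30 and 0.47 for leukocyte genes, 0.15 and 0.31 for Schwann cell and axon genes, and 0.52 and 0.34 for erythroid genes. The neuronal genes had 0.65 and 0.75, the absent tissues 0.52 and 0.51, the myofiber genes -0.62 and -0.56 and the satellite list, most of whose counts are of Des, -0.37 and -0.14. Without the 5 fibers, the neuronal list had a higher r with the 9 genes than the other endothelial list had. These sums differ in depth and make-up, with 607 CPM and 258 CPM. Rgcc and Cd36 supplied 99.3 and 34.9 CPM of the latter, with r of -0.08 and 0.12. Erg had 0.56, Ptprb 0.48, Vwf 0.34 and Mmrn2 0.23. The order of both lists was thus not a comparison on equal terms. Spearman's rho of the 9-gene CPM with Ttn CPM was -0.30, with genes detected 0.18, with the mitochondrial share -0.024 and with total counts 0.0037, over 171 fibers.

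Among the 8744 other genes with at least 500 counts, the 10 nearest to the summed 10 members were Ebf1 (r = 0.92), Adgrf5 (0.91), Cacna1c (0.88), Rapgef5 (0.86), Ptprb (0.86), Adamts9 (0.85), Elmo1 (0.83), Rbpms (0.83), Rgs5 (0.83) and Cyyr1 (0.82). Ptprb is an endothelial phosphatase that acts on Tek and Cdh5, Adgrf5 is an adhesion receptor of endothelium, Rgs5 is a marker of pericytes and Cacna1c is the calcium channel of smooth muscle and heart. Without the 5 fibers these 10 genes had r from 0.37 (Ptprb) to 0.59 (Ebf1). An r of 0.5 with the 10 members was reached by 4.46% of the 8744 genes, and by 1.16% without the 5 fibers. For the summed 9 genes the nearest were Adgrf5 (0.94), Ebf1 (0.93) and Ptprb (0.91), and 4.45% of the genes reached an r of 0.5, with 1.91% without the 5 fibers. Of the 6 genes of the other endothelial list with 500 counts, 4 reached 0.5, namely Ptprb, Erg (0.75), Vwf (0.70) and Mmrn2 (0.67). Rgcc (-0.08) and Cd36 (0.18), a fatty acid transporter that myofibers also express, did not, and they were the most abundant of that list at 99.0 and 35.4 CPM.

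Tek had other neighbors. The genes nearest to Tek were Ctnnal1 (r = 0.90), Gm31123 (0.88), 1700022A22Rik (0.87), Gm20662 (0.85), Commd10 (0.83), Lin54 (0.83), 1700026J12Rik (0.82), Hapln1 (0.80), Rspo2 (0.80) and Shank1 (0.78). None of them is in the endothelial lists, and 0 of 6 genes of the other endothelial list reached an r of 0.5 with Tek, at a median of 0.25. Of all 8744 genes, 0.846% reached 0.5, and 0.823% without the 5 fibers. The r with Tek changed little without the 5 fibers, at 0.90 for Ctnnal1 and 0.77 for Shank1. Among the 10 neighbors the median r was 0.79 over their 45 pairs, and 0.79 without the 5 fibers. For the 10 genes nearest the 9 members these medians were 0.80 and 0.36. Both sets were picked for a high r in the same fibers, so high values among them follow in part from the choice. The 5 fibers held 18.0% of the counts of the 9 genes and 2.82% of those of Tek. Leaving them out therefore bears mainly on the 9 genes and does not compare both sets on equal terms. The neighbors of Tek lie on 9 chromosomes, and Ctnnal1 alone is on the chromosome of Tek, 4. Ctnnal1 was measured at 112 CPM in all, with a median of 61.9 CPM per fiber and a highest value of 561 CPM, and its Spearman's rho with Tek was 0.71. What the genes of this group share was not tested.

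**Figure D3:**
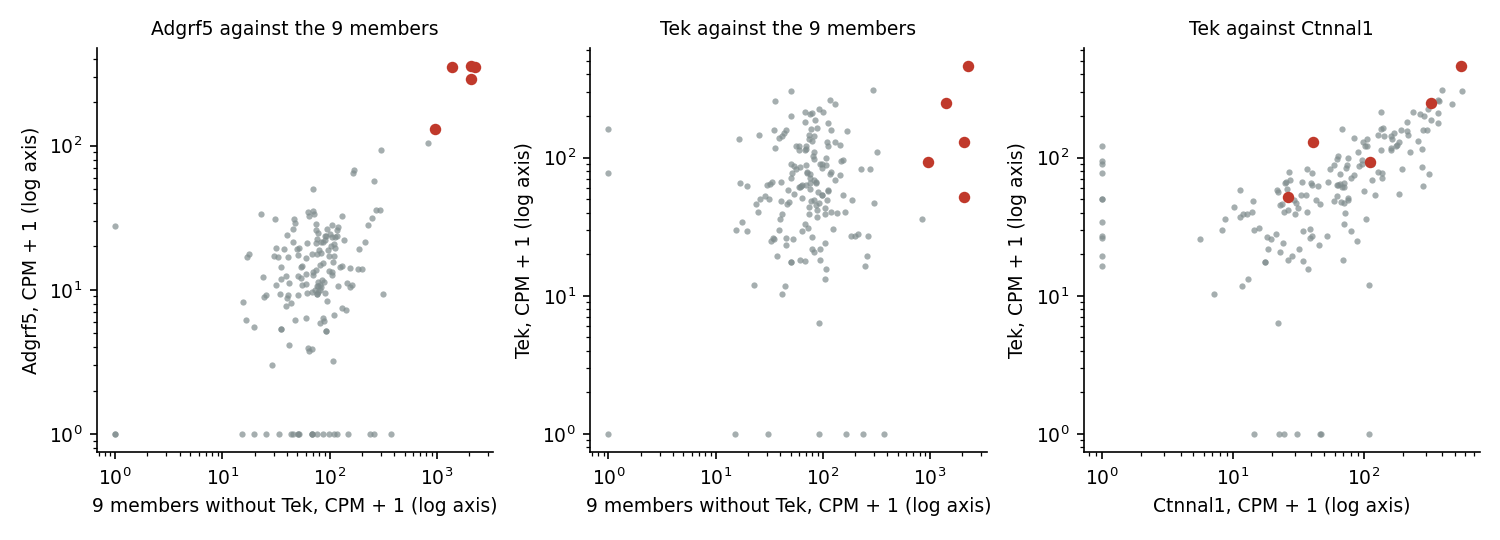
CPM + 1 per fiber on log axes for Adgrf5 against the 9 members (left), Tek against the 9 members (middle) and Tek against Ctnnal1 (right), with the 5 fibers with the most member counts per total in red. Adgrf5 is highest in the red fibers, Tek spreads over the same range at low and high levels of the 9 members, and Tek rises with Ctnnal1 in red and grey fibers (r = 0.90).

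The squared coefficient of variation between fibers also set Tek apart, while the share held by the top 17 fibers was alike for Tek and the summed 9 genes. The squared coefficient of variation beyond counting error was 0.523 for Tek, near the median of 0.468 over the 15816 genes with at least 100 counts. It was 5.19 for Emcn, which was higher than in 99.2% of these genes, 2.33 for Flt1 (92.6%), 1.92 for Tie1 (89.0%) and 1.62 for Cdh5 (85.5%). For Esam, Kdr, Pecam1, Egfl7 and Eng it was 1.35 (80.9%), 1.34 (80.7%), 1.07 (74.4%), 0.993 (72.3%) and 0.916 (69.7%). The 17 fibers with the most counts of the 9 genes held 42.5% of them, and 22.0% of the counts of all genes. For Tek the top 17 held 44.9%, and 23.1% of all counts. The 5 fibers held 18.0% of the counts of the 9 genes and 2.82% of Tek, with 0.918% of all counts.

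Of the ligands of these receptors, Vegfb and Vegfa had more CPM than any member, and the summed ligands did not follow the members. Vegfb had 153 CPM (limits 150 to 157) and was found in all 171 fibers, Vegfa had 134 CPM (limits 131 to 137) and was found in 165, and Angpt1, the activating ligand of Tek, had 78.6 CPM (limits 76.2 to 81.0) and was found in 165. Vegfd (10.1 CPM), Tgfb1 (5.10), Angpt4 (3.89), Vegfc (3.64) and Pgf (3.51) were lower. Of 12 ligand genes 8 had at least 100 counts. The summed ligands had an r of -0.12 with the 9 members and of -0.03 with Tek. Vegfa and Vegfb were lower in the 5 fibers, at 46.2 and 58.7 CPM, than in the rest, at 135 and 154 CPM, and Angpt1 was at 71.3 and 78.7 CPM. Tgfb1 (37.8 against 4.80 CPM), Pgf (39.9 against 3.17) and Vegfc (18.9 against 3.5) were higher in the 5 fibers.

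Most co-receptors and partners of the receptors were higher in the same 5 fibers as the 9 members, at 957 against 109 CPM in sum. Of 9 such genes, 8 had at least 100 counts, and the summed list had an r of 0.85 with the 9 members, 0.62 without the 5 fibers, and 0.35 with Tek. Nrp1 (30.5 CPM, 154 fibers), Nrp2 (29.5 CPM, 147 fibers) and Tgfbr2 (22.1 CPM, 142 fibers) were the most abundant. Nrp1 and Nrp2 are co-receptors of the growth factor receptors, and Tgfbr2 is a receptor of the TGF-beta family. Their r with the 9 members was 0.48, 0.64 and 0.26. Ptprb had 0.91, Plxnd1 0.62, Acvrl1, a receptor that works with Eng, 0.57, and Flt4 0.45. Itgb3 was the exception over all fibers, with an r of 0.095 and 4.20 against 3.36 CPM. Without the 5 fibers the r of Itgb3 was 0.28, above Tgfbr2 (0.24), Flt4 (0.17), Acvrl1 (0.15) and Plxnd1 (0.13). Nrp2 (0.54), Ptprb (0.48) and Nrp1 (0.40) were higher.

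Fibers were classed by the largest of Myh1, Myh2, Myh4, Myh7 and Myh8 into 117 fast 2X, 51 fast 2A, 2 slow and 1 fast 2B fibers. The 9 genes had 81.0 CPM in fast 2A and 106 CPM in fast 2X fibers, a log2 ratio of -0.39 (limits -0.49 to -0.29). Without the 5 fibers, 4 of which are fast 2X, the ratio was -0.13 (limits -0.23 to -0.02). It was 0.17 on lane 1 and -0.81 on lane 2, and lower in fast 2A on 6 of 8 plates. Tek had 90.3 CPM in fast 2A and 90.9 CPM in fast 2X fibers, a ratio of -0.01 (limits -0.11 to 0.09), with 0.58 for lane 1 against -0.33 for lane 2, with 4 plates in each direction between -1.18 and 1.37. A class difference of either was thus not stable between the lanes.

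By gene, Pecam1 was 25.03 CPM in fast 2A and 24.5 CPM in fast 2X fibers (log2 ratio 0.03, limits -0.16 to 0.22), and Kdr 5.63 and 5.33 CPM (0.08, limits -0.34 to 0.48). The lanes went opposite ways for Pecam1, with 0.59 (limits 0.32 to 0.86) on lane 1 and -0.41 (limits -0.71 to -0.12) on lane 2. Without the 5 fibers the Pecam1 ratio was 0.22 (limits 0.02 to 0.42). Flt1 had 19.5 and 29.7 CPM, a ratio of -0.61 (limits -0.82 to -0.41), which was -0.26 (limits -0.48 to -0.04) without the 5 fibers and 0.12 on lane 1. Eng had 11.4 and 17.8 CPM, a ratio of -0.64 (limits -0.92 to -0.37), which was -0.57 (limits -0.85 to -0.29) without the 5 fibers. Eng was lower in fast 2A on both lanes (-0.22 and -0.87) and on 7 of 8 plates, although its limits on lane 1 (-0.62 to 0.16) included 0. Emcn had the lowest ratio, with 2.69 and 5.77 CPM and -1.10 (limits -1.68 to -0.56), and -0.65 (limits -1.27 to -0.08) without the 5 fibers. By lane Emcn was at -0.18 (limits -0.95 to 0.54) on lane 1 and -1.93 (limits -3.02 to -1.02) on lane 2. Cdh5 was at -0.64 (limits -1.06 to -0.23), and at -0.24 (limits -0.68 to 0.17) without them. Tie1 (-0.40), Esam (-0.58) and Egfl7 (-0.18) had limits that included 0.

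Of the 10 members, 1 (Emcn) was at least 2-fold lower in fast 2A and 0 were at least 2-fold higher, against 7.26% and 1.82% of the 18847 genes with at least 50 counts. Emcn was not past 2-fold on lane 1 (log2 ratio -0.18) or without the fiber with the most member counts (-0.69). Among the 4 members with at least 500 counts, 0 were past 2-fold in either direction, against 1.75% lower and 0.789% higher of 8743 genes. The median of all these 8743 genes was -0.09. Per fiber the classes overlapped throughout, and the 10-gene level ran from 0 to 1052 CPM with a median of 150 in fast 2A and from 14.3 to 2740 CPM with a median of 151 in fast 2X. The fast 2B fiber, on plate 707, had 91 member UMIs (354 CPM), among them 16 of Cdh5, 15 of Pecam1 and 21 of Tek. The slow fibers had 127 member UMIs on plate 707 (265 CPM) and 14 on plate 709 (139 CPM).

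**Figure D4:**
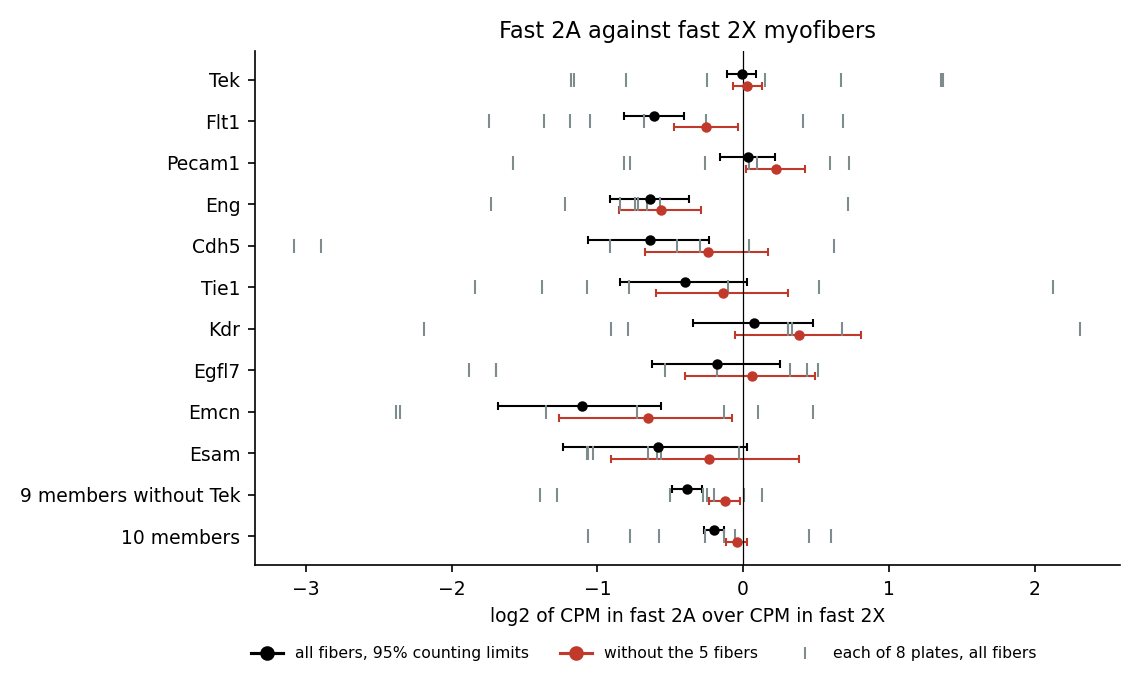
Log2 ratio of CPM in 51 fast 2A over 117 fast 2X fibers for each member and for the sums, with 95% counting limits, over all fibers (black) and without the 5 fibers with the most member counts per total (red); grey ticks are the ratios on each of the 8 plates. Black points run from -1.10 (Emcn) to 0.08 (Kdr), most red points lie nearer 0, and the plates spread on both sides of 0 for 9 of the 10 genes, with all 7 plates with a value below 0 for Esam.

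Among ligands, Vegfa and Vegfb were higher and Angpt1 was lower in fast 2A fibers. Vegfa had 174 CPM in fast 2A and 122 CPM in fast 2X fibers, a log2 ratio of 0.52 (limits 0.44 to 0.59), with 0.53 and 0.51 by lane. Vegfb had 196 and 141 CPM, a ratio of 0.48 (limits 0.41 to 0.55), with 0.45 and 0.52 by lane. Angpt1 was lower in fast 2A, at 59.5 and 84.5 CPM, a ratio of -0.51 (limits -0.63 to -0.39), with -0.40 and -0.61 by lane. Each of these 3 ratios had the same sign on both lanes. Of the 8 ligands with at least 100 counts, 1 was past 2-fold, Angpt4, a ligand of Tek, with -1.01 (limits -1.66 to -0.41), and of the 8 co-receptors 0 were. Of all genes, 7.26% with at least 50 counts and 1.75% with at least 500 were at least 2-fold lower in fast 2A. At least 2-fold higher were 1.82% and 0.789%. The share at 100 counts was not computed. Nrp1 had 0.35 and Nrp2 -0.54.

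By plate, the 9 genes ranged from 48.4 CPM (limits 44.1 to 53.0) on plate 708 to 186 CPM (limits 175 to 197) on plate 710, a ratio of 3.83. The plates between were 712 (59.5 CPM), 706 (86.8), 709 (97.3), 707 (105), 705 (125) and 711 (152). Plate 710 held 3 of the 5 fibers and plates 705 and 711 1 each, and without them plate 711 fell from 152 to 78.3 CPM and plate 710 to 123 CPM, with a ratio of 2.54 between plates 710 and 708. The median fiber ranged from 38.3 CPM on plate 712 to 110 CPM on plate 710. At least 1 of the 9 genes was found in all fibers of 6 plates, in 22 of 23 on plate 708 and in 19 of 21 on plate 712.

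Tek had a different order of plates. It was 57.9 CPM on plate 708, 66.2 on 706, 70.4 on 707, 96.2 on 705, 99.0 on 709, 111 on 711, 113 on 712 and 124 CPM on 710, so that each plate of lane 2 was above each plate of lane 1 in summed counts, although the limits of plates 705 (86.9 to 106) and 709 (91.4 to 107) overlapped. By the median fiber this order did not hold, since plate 705 was at 88.0 CPM and plates 709, 711 and 712 at 64.8, 75.1 and 76.6 CPM. Over a lane Tek had 68.9 CPM on lane 1 and 112 CPM on lane 2, and the 9 genes 82.6 and 119 CPM. Plate 712 was thus low for the 9 genes and high for Tek. With 4 plates a lane, lane and plate differences cannot be told apart from differences between the fibers placed in them.

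For single genes the ratio of the highest to the lowest plate was 8.02 for Tie1, 8.0 for Emcn, 7.24 for Cdh5, 5.59 for Flt1, 5.13 for Esam, 4.05 for Kdr, 3.48 for Egfl7, 3.22 for Pecam1, 2.15 for Tek and 2.11 for Eng. Without the 5 fibers it was 5.17 for Tie1, 4.45 for Emcn, 6.26 for Cdh5, 3.47 for Flt1, 3.45 for Esam and 2.6 for Pecam1. Plate 708 was the lowest for 8 of the 10 members, all but Pecam1, which was lowest on plate 712, and Egfl7, which was lowest on plate 709. Of the members, 8 of 10 reached a ratio of 3, against 42.6% of the 15816 genes with at least 100 counts, whose ratio is larger at low counts.

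**Figure D5:**
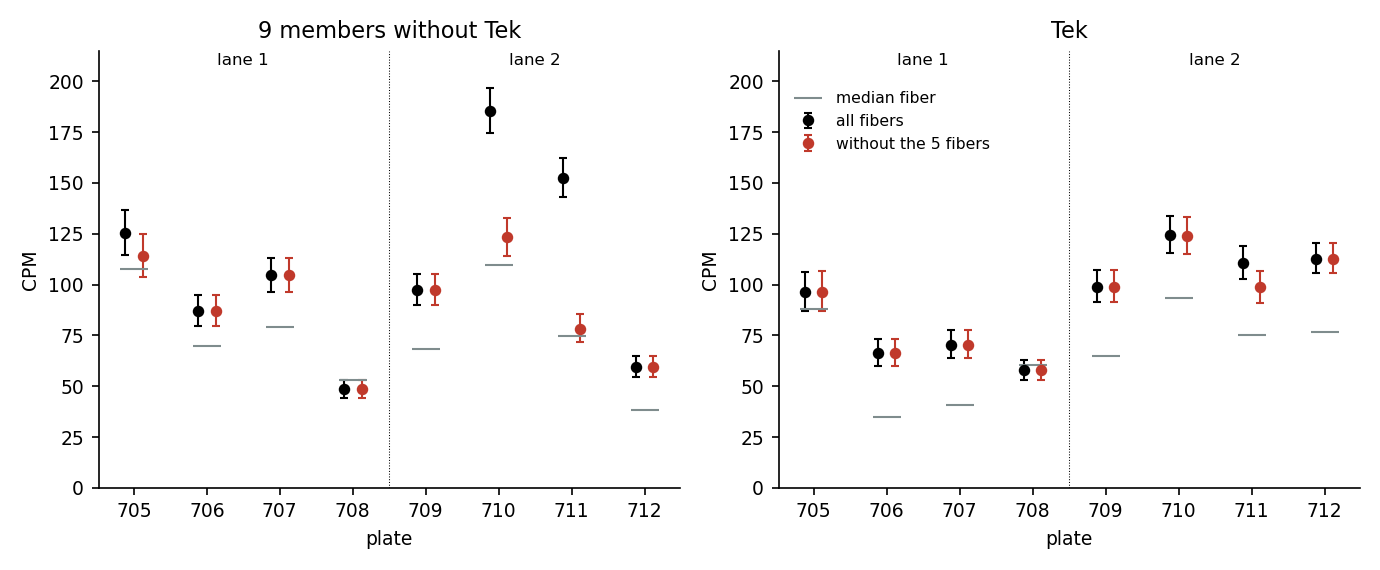
Level of the 9 members without Tek (left) and of Tek (right) on each of the 8 plates, in CPM with 95% counting limits, over all fibers (black) and without the 5 fibers with the most member counts per total (red); grey bars are the median fiber, and the dotted line divides lane 1 from lane 2. The 9 genes are highest on plates 710 and 711 and fall there without the 5 fibers, while Tek stays at 124 CPM on plate 710 and is at 98.8 CPM or more on all plates of lane 2.

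The 592 cells left out by the filters carried the members at higher CPM. The 9 genes had 361 CPM in them, against 101 CPM in the fibers kept, a log2 ratio of kept over left-out of -1.83 (limits -1.89 to -1.78). Mitochondrial counts made up a median of 48.0% in these cells and 5.96% in those kept. With non-mitochondrial counts as the total, the 9 genes had 760 CPM against 108 CPM, a ratio of -2.82. Flt1 had 136 against 27.4 CPM, Pecam1 61.7 against 24.8, Kdr 34.6 against 5.49 and Cdh5 33.1 against 7.63. Kdr differed most, with a log2 ratio of -2.66 (limits -2.87 to -2.45), and Tek least, with 132 against 91.0 CPM and a ratio of -0.53 (limits -0.61 to -0.46). Of the members, 8 of 10 were at least 2-fold higher in the left-out cells, against 3.23% of 15816 genes, and per non-mitochondrial count 10 of 10, against 26.5% of 15796 genes.

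Eng was the exception by lane, since its ratio was 0.05 with lane 2 alone. Fewer left-out cells had a UMI of each member at their median depth of 16032 counts, from 80 cells for Esam (13.5%) to 262 for Flt1 (44.3%) and 393 for Tek (66.4%). The level was alike in the 502 whole myofibers left out (355 CPM for the 9 genes) and the 90 fragments (384 CPM), but Tek was 149 CPM in the former and 68.8 CPM in the latter. In the 111 left-out cells with more than 5000 genes the 9 genes had 522 CPM. The left-out cell with the most counts of the 9 genes, a whole myofiber on plate 705, had 292 of them (2397 CPM), with 148 UMIs of Flt1 and 50 of Pecam1, and 95 of the pericyte gene Rgs5. The left-out cells also had more CPM of other endothelial genes (586 against 277), fibroblast genes (330 against 152) and erythroid genes (149 against 19.8). They had about as much of the summed mural genes (338 against 354) and less of myofiber genes (63945 against 169381). Abcc9, Smtn and Cspg4 supplied 8283, 4920 and 2266 of the 18399 mural counts of the kept fibers. The mural sum thus says little about the other genes of that list. The part of these lists in the result was not tested.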

How the data were processed

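Single FDB myofibers of 1 mouse were sequenced by mcSCRB-seq. The authors ran zUMIs, which maps reads with STAR 2.5.4b to GRCm38 with spike-in sequences and counts with featureCounts, and deposited 1 table of raw UMI counts per gene and cell. The labels also list Cell Ranger 3.1.0. The 10 description lines above the genes, among them percent mitochondrial values given by the authors, were not used as measurements. Symbols on more than 1 line were summed, which left 35161 symbols. All 96 well barcodes were used on more than 1 plate, and 0 full cell names were shared.

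Fibers kept had 28827 to 1542996 counts (median 239581; 213280 on lane 1 and 246064 on lane 2). Counts were summed over fibers and divided by summed totals (CPM), with exact Poisson limits for levels, Clopper-Pearson limits for shares and conditional binomial limits for ratios. A group is 1 sample, so no p-value was computed. Scripts were tested on simulated counts. The members and all gene lists were chosen with earlier results of these data known. Named genes are all members, the 3 most abundant of a list, ligands and co-receptors with at least 100 counts, the 10 genes nearest the members, and the 5 fibers with the most member counts per total; other names were chosen after their values were seen. Of the absent-tissue list, 1 gene that this rule would name is not reported here, and others are named. Python 3.11.15, numpy 2.4.6, pandas 2.3.3 and scipy 1.17.1 were used.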

Additional observations from a re-analysis of the deposited data

How the results depend on the processing

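No paired analysis was possible because all samples form 1 group. A value counted as moved when it changed by more than the SD of the 2 lanes. The share of fibers carrying at least 5 members (80.7%) was 52.0% with at least 2 UMIs, 11.9% after thinning in 10 draws made apart from those of the 12.2% above, 89.9% with a gene minimum of 8000 and 69.0% without Tek, and 78.3% to 83.0% with 1 lane. The level of 192 CPM was 101 CPM without Tek and 83.9 CPM without Tek and the 5 fibers, and 151 to 230 CPM with 1 lane. The median r of 0.58 was 0.18 by Spearman, 0.13 without the 5 fibers and 0.16 without them and Tek, and 0.16 to 0.66 with 1 lane. The share of member counts in the top 17 fibers over their share of all counts was 1.73, 4.08 after thinning and 1.34 to 1.85 with 1 lane. The fast 2A over fast 2X log2 ratio of the 10 genes (-0.20) turned to 0.37 with lane 1 alone and was -0.57 with lane 2 alone, and it ran from -0.81 to 0.17 for the 9 genes, -1.35 to 0.19 for Cdh5 and -1.26 to 0.12 for Flt1, positive with lane 1 alone. It was -0.09 with TMM factors and -0.08 with median-of-ratios factors. The kept over left-out ratio of Eng was 0.051 with lane 2 alone and -1.61 with lane 1 alone. The plate ratio of 2.91 was 4.92 for the mean of the fibers' CPM, 2.32 without the 5 fibers, 3.83 without Tek, 2.54 without both, and 1.80 to 2.08 with 1 lane. The kept over left-out ratio (-1.36) was -2.34 per non-mitochondrial count, and -1.87 to -0.92 with 1 lane. Alternatives without Tek, and without the 5 fibers for the top 17 and the left-out cells, were chosen after seeing the data. The causes were not tested. Of the alternatives for single genes and the 9 genes, 239 stayed within that SD, 93 moved and 4 turned in sign. For class ratios a turn was counted only where the limits of the main value excluded 0.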
